A study of Mus musculus with 11 samples.

Results

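The CCN genes encode secreted matricellular proteins, which sit in the extracellular matrix and act on cells instead of building it. They were measured in the aortic arch of mice with and without a heterozygous substitution in Tgfbr2, which encodes a receptor of the cytokine TGF-beta. The genes described are the 5 rows of the authors' normalized table named Ccn1, Ccn2, Ccn3, Ccn4 and Ccn5, out of 48709 mouse genes in the count table. All 5 were among the 14757 genes with enough reads to test. The family was chosen on the difference between the genotypes itself, since it was proposed after the high level of Ccn3 in the mutant arches was known. The genotype differences of the 5 genes are therefore given as a description, with their calls but no p-value, and they support nothing further.

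Both groups were aortic arches at postnatal day 11, sequenced as bulk RNA with no treatment. The Het group held 6 mice with the G357W substitution on 1 Tgfbr2 allele, made to model Loeys-Dietz syndrome, an inherited connective tissue disorder with aortic aneurysm. The WT group held 5 littermates with both alleles intact. The labels give neither sex nor strain, and as cell type they give smooth muscle and endothelium, although the sample is whole tissue. Each library was taken as 1 animal.

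CCN proteins share a cysteine-rich build: a module like that of the insulin-like growth factor (IGF) binding proteins, a von Willebrand type C module, a thrombospondin type 1 module and, in most members, a C-terminal cystine knot, which Ccn5 lacks. They bind integrins, LDL receptor-related proteins and heparan sulfate. Ccn1 and Ccn2 are textbook targets of the YAP and TEAD transcription factors, Ccn2 is also a textbook TGF-beta target, and Ccn4 and Ccn5 were first described as Wnt-induced secreted proteins. Ccn3, once called Nov, binds Notch1 and opposes some actions of Ccn2 in cultured cells.

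The stretch of coding sequence for the cysteine signature of the IGF binding protein-like module is shown for the 5 genes because it holds a pattern of cysteine codons present in each of them. It was read 5′ to 3′ from the GENCODE M21 transcripts (GRCm38) at coding bases 145 to 168 of Ccn1, 154 to 177 of Ccn2, 160 to 183 of Ccn3, 214 to 237 of Ccn4 and 145 to 168 of Ccn5, counted from the A of the start codon. Capitals mark the cysteine codons.
Ccn1: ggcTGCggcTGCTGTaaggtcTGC
Ccn2: ggcTGCggcTGCTGCcgcgtcTGC
Ccn3: ggcTGCtccTGCTGTccggtgTGC
Ccn4: ggcTGTgaaTGCTGTaagataTGT
Ccn5: ggcTGTggcTGCTGTcgagtgTGT
Of these 24 bases, Ccn3 shared 19 with Ccn1, 18 with Ccn2, 15 with Ccn4 and 18 with Ccn5. The encoded proteins have 379, 348, 354, 367 and 251 residues for Ccn1 to Ccn5, and Ccn5 is the short member without the last module. Over the aligned residues of the whole translated sequences, Ccn3 was 47.7% identical to Ccn1, 50% to Ccn2, 43.7% to Ccn4 and 45.9% to Ccn5. The reads were 75 nt long, and the longest run of bases shared by transcripts of 2 of the 5 genes was 29 bases, between Ccn2 and Ccn3. No read can therefore match 2 members over its whole length.

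The 5 genes lie on chromosomes 2, 3, 10 and 15 (GRCm38, positions from 1). Ccn1 (ENSMUSG00000028195) spans 145646976 to 145649981 on chromosome 3. Ccn2 (ENSMUSG00000019997) spans 24595442 to 24598683 on chromosome 10. Ccn3 (ENSMUSG00000037362) spans 54745702 to 54754039 on chromosome 15, and Ccn4 (ENSMUSG00000005124) spans 66891320 to 66923201 on the same chromosome. Ccn5 (ENSMUSG00000027656) spans 163820861 to 163833146 on chromosome 2. All 5 are protein-coding genes with 5 exons in the transcript used for the coding sequence. Only Ccn2 has an annotated gene that overlaps it, the noncoding Gm15270 on the opposite strand. The libraries do not mark strand, so reads in that overlap cannot be told apart. Gm15270 itself averaged 3.21 ± 0.273 CPM (SD, n = 5) in WT and 2.24 ± 0.648 (SD, n = 6) in Het.

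Library totals were 13113467 to 19327935 counts, and CPM below are counts scaled to 1000000 per library with TMM, an adjustment for library composition. The contractile genes of smooth muscle were abundant, with Acta2, its actin, at 23305 to 32199 CPM, and Pecam1, an endothelial adhesion molecule, lay at 202 to 343 CPM. Markers of adventitial fibroblasts (Dpt, 396 to 580.2 CPM) and of brown fat (Ucp1, 147 to 1437 CPM) were present too. Tgfbr2 counts do not separate the alleles and so do not check the labels; WT libraries averaged 41.3 CPM and Het libraries 39.0 (log2 fold change -0.09 ± 0.13, SE). All WT libraries, Het 1 and Het 2 held 58.4 CPM or more of Xist, the RNA of the inactive X. Het 3 to 6 had no more than 0.735 CPM of it, and they alone had counts of the Y-linked Ddx3y. Sex is thus unevenly spread over the groups. WT 1 and WT 2 stood apart on the first principal component of log2 CPM, at -49.7 and -47.1 against -16.4 to 29.1 for the other 9 libraries. Without both, the log2 fold changes given below were 0.74 for Ccn1, 0.55 for Ccn2, 2.21 for Ccn3, 0.45 for Ccn4 and 0.84 for Ccn5. In bulk samples, more cells of a type and more RNA per cell cannot be told apart.

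Ccn3 was the member with the clear separation between genotypes. In WT it lay at 131 CPM (WT 1), 126 (WT 2), 116 (WT 3), 126 (WT 4) and 98.7 (WT 5). In Het it lay at 486 CPM (Het 1), 649.8 (Het 2), 532 (Het 3), 561 (Het 4), 566 (Het 5) and 354 (Het 6). Every Het library was above every WT library, and the lowest of the Het libraries, Het 6, was 2.70-fold above the highest of the WT libraries, WT 1. WT averaged 119 ± 12.9 CPM (SD, n = 5) and Het 525 ± 99.2 CPM (SD, n = 6), a 4.39-fold difference (log2 fold change 2.13 ± 0.13, SE). The count behind these values was 1320 or more in every library, so counting error is small beside the spread between animals.

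The high Ccn3 level was present in Het libraries of both kinds of sex-linked expression. The 2 Xist-positive Het libraries lay at 486 and 649.8 CPM and the 4 Y-positive ones at 354 to 566 CPM, while all WT libraries were Xist-positive. In the Xist-positive libraries alone the log2 fold change was 2.25, the highest of 24 alternative fits, and the lowest was 2.03, with the number in the deposited column names as a covariate. That number, 6 or 7, is not explained in the labels; within number 6 the Het libraries lay at 486 to 649.8 CPM beside 116 CPM in the 1 WT library, and within number 7 at 354 and 532 CPM beside 98.7 to 131 CPM in WT.

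**Figure D1:**
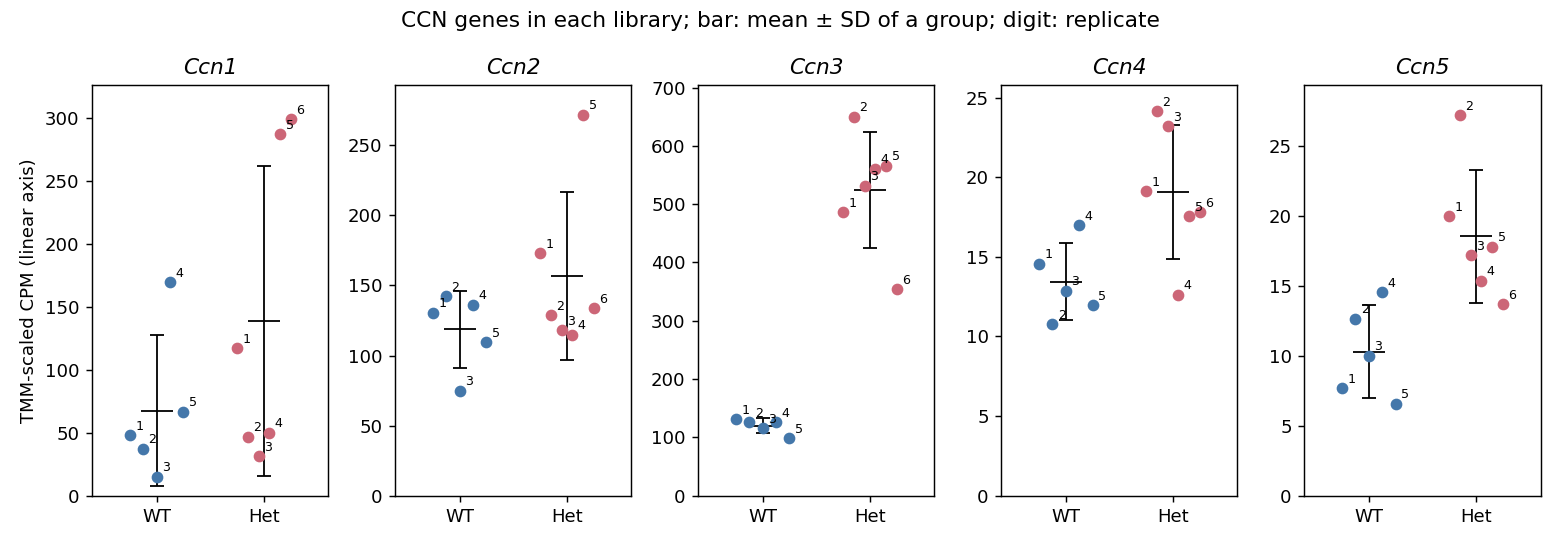
TMM-scaled CPM (linear axes from 0, 1 panel per gene) of the CCN genes in 5 WT (blue) and 6 Het (red) libraries, with the mean ± SD of each group as black bars and the replicate number beside each point. The Ccn3 points of the groups are apart (98.7 to 131 CPM in WT, 354 to 649.8 CPM in Het), and those of the other 4 genes overlap.

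Ccn5, the member without the C-terminal cystine knot, was the other gene with a higher level in Het that passed the threshold. It lay at 7.68, 12.7, 10.01, 14.5 and 6.58 CPM in WT 1 to 5. In Het 1 to 6 it lay at 20.02, 27.2, 17.2, 15.4, 17.8 and 13.7 CPM. All but Het 6 were above the highest of the WT libraries, WT 4, so the groups overlapped by 1 library on each side. WT averaged 10.3 ± 3.33 CPM (SD, n = 5) and Het 18.6 ± 4.77 CPM (SD, n = 6), with a log2 fold change of 0.85 ± 0.22 (SE).

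The call of Ccn5 depended on which libraries were used. Leaving out a WT library ended it for WT 1, 3 and 5, at log2 fold changes of 0.76, 0.84 and 0.73. Leaving out a Het library ended it for Het 1, 2 and 5, at 0.83, 0.71 and 0.86. It was also lost in the Xist-positive libraries alone (1.20), with the column number as a covariate (0.73) and without WT 1 and WT 2 together (0.84). With a sex score as a covariate it passed, at 1.18. The 2 Xist-positive Het libraries had the highest Ccn5 levels of all 11, at 20.02 and 27.2 CPM, against 13.7 to 17.8 CPM in the Y-positive ones.

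Ccn4, described first as a Wnt-induced protein, did not pass. Its levels were 14.6, 10.8, 12.9, 17.0 and 11.96 CPM in WT 1 to 5. In Het 1 to 6 they were 19.1, 24.1, 23.2, 12.6, 17.6 and 17.8 CPM. Here too 5 of 6 Het libraries lay above the highest of the WT libraries, with Het 4 below 3 of them. WT averaged 13.4 ± 2.41 CPM (SD, n = 5) and Het 19.1 ± 4.21 CPM (SD, n = 6), with a log2 fold change of 0.51 ± 0.17 (SE). It passed without Het 4 (0.60) and in none of the other 23 alternative fits.

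Ccn2, the textbook target of both TGF-beta and YAP, overlapped between the groups. It was at 131, 142, 75.0, 136 and 110 CPM in WT 1 to 5. In Het 1 to 6 it was at 173, 129, 118, 115, 272 and 134 CPM. In Het, 2 libraries lay above the highest of the WT libraries, and none lay below the lowest. WT averaged 119 ± 27.4 CPM (SD, n = 5) and Het 157 ± 60.2 CPM (SD, n = 6), with a log2 fold change of 0.40 ± 0.23 (SE) that did not pass. It was 0.17 without Het 5 and 0.27 without WT 3.

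Ccn1, a textbook immediate early gene, varied widely among animals of both genotypes. It was at 48.0, 37.4, 15.1, 169 and 66.7 CPM in WT 1 to 5. In Het 1 to 6 it was at 117, 46.8, 31.2, 50.2, 287 and 299 CPM. High and low libraries stood in both groups, with an 11.2-fold range in WT and a 9.60-fold range in Het. WT averaged 67.3 ± 59.99 CPM (SD, n = 5) and Het 139 ± 123 CPM (SD, n = 6), with a log2 fold change of 1.05 ± 0.79 (SE) that did not pass. It moved to 1.74 without WT 4, to 1.68 with the column number, to 0.66 with the replicate number as a block, to 0.30 in the Xist-positive libraries and to 0.22 with the sex score.

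The sixth gene of the family, Ccn6, is outside the group of 5 and was not tested. It had 0 to 3 counts per library, a level of at most 0.224 CPM, which is no more than the 3 counts that a count of 0 allows.

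In the fit of all genes, 2 of the 5 members had an adjusted p under 0.05 in edgeR's quasi-likelihood test, both with the higher level in Het. Over all 14757 genes tested, 5.03 percent passed, 2.65 percent higher and 2.38 percent lower in Het. Every Het library lay above every WT library for 1 member, Ccn3, and for 2.41 percent of all genes tested; every Het library lay below for no member and for 2.20 percent of all genes. All 5 log2 fold changes were positive, beside a median of -0.0046 over all genes. Because the family was proposed with these values known, nothing is read from those counts.

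**Figure D2:**
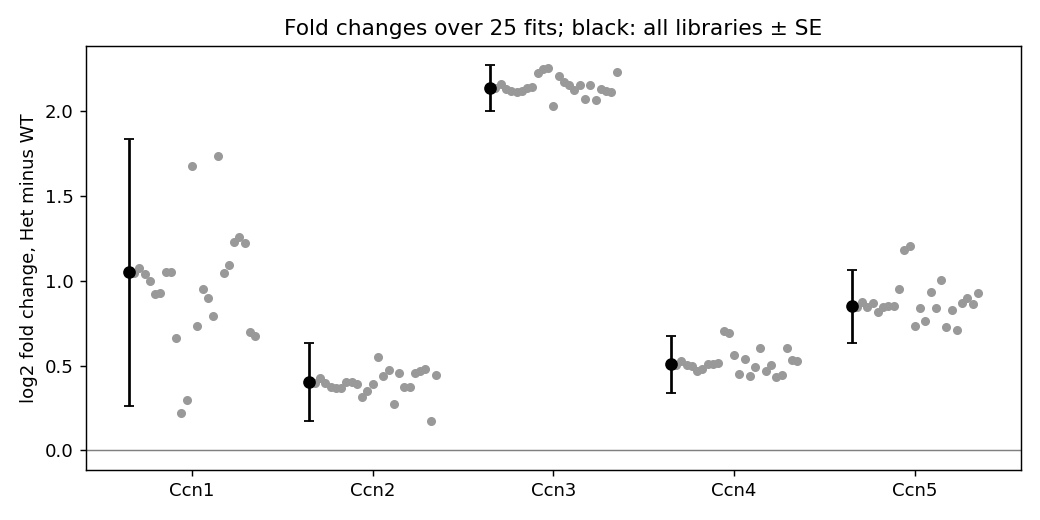
Log2 fold change of each CCN gene, Het minus WT, in the fit of all libraries (black, ± SE) and in 24 alternative fits (grey). Ccn3 stayed between 2.03 and 2.25, while Ccn1 ranged from 0.22 to 1.74.

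Summed over the 5 genes, CCN transcripts came to 329 ± 85.4 CPM (SD, n = 5; 229 to 463) in WT and to 858 ± 158 CPM (SD, n = 6; 721 to 1161) in Het. Without Ccn3 the sums overlapped, at 113 to 337 CPM in WT and 189.8 to 595 CPM in Het. Ccn3 made up 37.8 ± 8.67 percent of the family's CPM in WT and 62.3 ± 13.9 percent in Het. Its share was lowest in Het 5 and Het 6, at 48.8 and 43.3 percent, where Ccn1 took 24.7 and 36.5 percent. The share of Ccn2 was 29.5 to 43.3 percent in WT and 14.7 to 23.4 percent in Het, with no overlap, although its own level was not lower in Het.

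**Figure D3:**
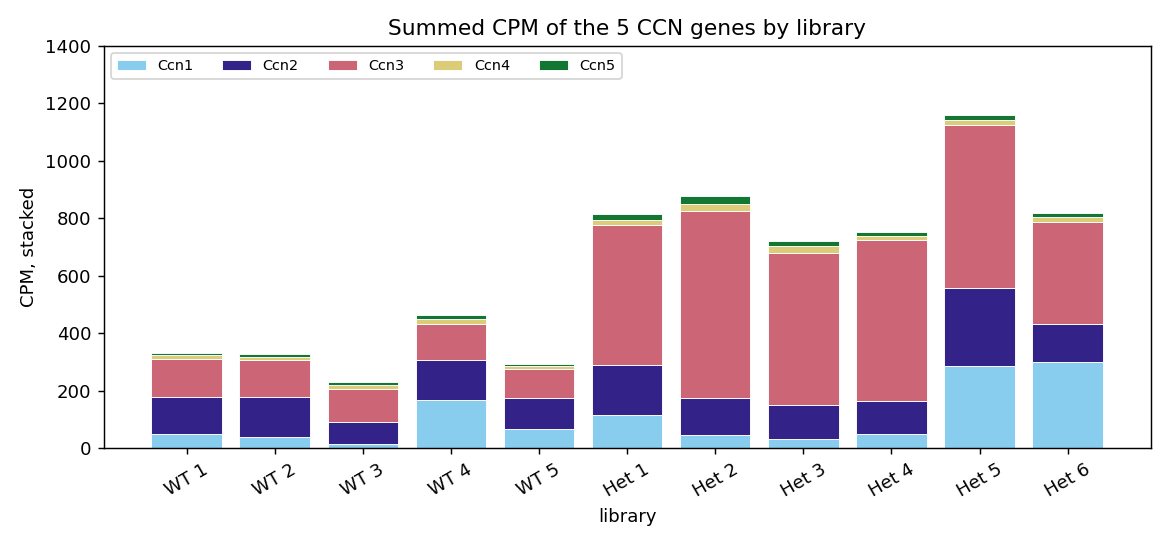
Stacked CPM of the 5 CCN genes (linear axis from 0) in each library. The Het sums of 721 to 1161 CPM are above the WT sums of 229 to 463 CPM, and the Ccn3 segment makes up most of the difference in height; Ccn1 is large in WT 4, Het 5 and Het 6.

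Per kilobase of exon, which allows levels to be compared between genes, Ccn1, Ccn2 and Ccn3 averaged higher than Ccn4 and Ccn5 in both groups. In WT, Ccn3 was at 41.7 ± 4.48 CPM per kilobase, Ccn2 at 41.5 ± 9.59 and Ccn1 at 33.3 ± 29.7 (SD, n = 5), and these 3 did not differ beyond their spread. Ccn5 followed at 5.35 ± 1.73 and Ccn4 at 2.41 ± 0.434 CPM per kilobase, and the lowest WT value of Ccn5 (3.42) was above the highest of Ccn4 (3.05). In CPM the WT means stood the other way, at 10.3 for Ccn5 and 13.4 for Ccn4. Their order thus rests on the exon lengths, 1924 bases for Ccn5 and 5565 for Ccn4. With the longest transcript as length the WT means were 5.99 and 2.64, but which transcripts are expressed was not measured. The ranges of Ccn1 and Ccn5 overlapped in WT, since the lowest Ccn1 library (WT 3, 7.48) was below the highest Ccn5 library (WT 4, 7.56). Within each WT library, however, Ccn1 was above Ccn5. In Het, Ccn3 stood first at 183 ± 34.6 CPM per kilobase (SD, n = 6). Ccn1 at 68.7 ± 61.1 and Ccn2 at 54.8 ± 21.0 overlapped each other, and only in Het 5 and Het 6 was Ccn1 above Ccn2. Ccn5 was at 9.65 ± 2.48 and Ccn4 at 3.43 ± 0.756. In Het, Ccn3 overlapped Ccn1, whose highest library (148 CPM per kilobase) was above the lowest of Ccn3 (124).

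**Figure D4:**
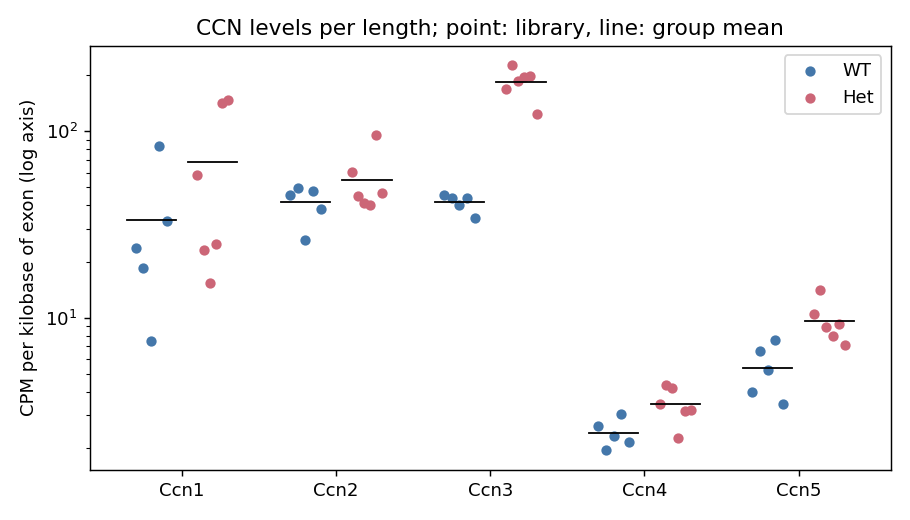
CPM per kilobase of exon (log axis) of the CCN genes in WT (blue) and Het (red) libraries, with group means as lines. Ccn1, Ccn2 and Ccn3 are at 33.3 to 41.7 on average in WT, and Ccn3 stands at 183 in Het.

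The members also differed in how much they varied within a genotype, a measure that does not use the difference between groups. The coefficient of variation of Ccn1 was 89.1 percent in WT and 89.0 percent in Het. That was above each of the 3272 genes within 2-fold of its level in WT, whose median was 12.5 percent, and above each of the 2018 such genes in Het (median 9.31 percent). Ccn3 had 10.8 percent in WT, close to the median of 11.9 percent for genes of its level, and 18.9 percent in Het (median 8.93 percent). Ccn2 had 23.1 percent in WT and 38.4 percent in Het, of which Het 5 was the far point.

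Within the groups, the members did not move as a block. After the mean of each genotype was taken out, Ccn1 and Ccn2 had a correlation of 0.69 over the 11 libraries, and leaving out any 1 library gave 0.58 to 0.85. Ccn3 and Ccn5 had 0.60 (0.46 to 0.73). Ccn1 and Ccn3 had -0.40 (-0.54 to -0.07), and the other pairs lay between -0.07 and 0.44. These are descriptions over libraries of the same tissue, with totals that differ as given above.

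Likeness to Ccn1 was measured by the same correlation within the groups. Among the 8265 named genes that averaged 10 CPM or above, those closest to it included Ntf3, the neurotrophin NT-3 (0.93), and Edn1, endothelin-1 (0.93). Ntf3 was lowest in Het 3 at 56.1 CPM and highest in WT 5 at 114 CPM, and Edn1 was lowest in WT 3 at 17.9 CPM and highest in Het 5 at 72.6 CPM. The libraries with high Ccn1, WT 4, Het 5 and Het 6, were high in both genes too. The highest of many correlations over 11 points is large by the search alone, so each gives only the order of likeness.

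Neither Edn1 nor Ntf3 passed between the genotypes (log2 fold changes 0.91 ± 0.33 and -0.06 ± 0.19, adjusted p = 0.138 and 0.917 by edgeR's quasi-likelihood test). Like Ccn1, they varied from library to library in both groups.

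**Figure D5:**
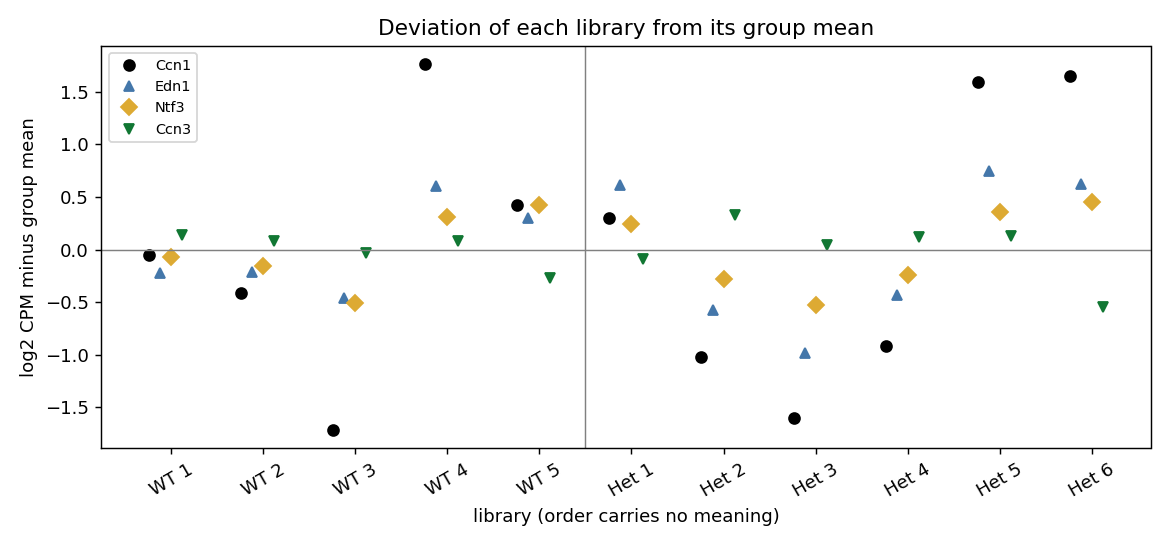
Log2 CPM of each library minus the mean of its group for Ccn1, Edn1, Ntf3 and Ccn3; the vertical line parts WT from Het. Ccn1, Edn1 and Ntf3 are all low in WT 3 and Het 3 and high in WT 4, Het 5 and Het 6, and Ccn3 does not follow them.

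The same search was made for the other members. Ccn2 was closest to Carmn, a smooth muscle long noncoding RNA (0.92), Rsf1, a chromatin remodelling factor (0.89), and Epb41l2, a membrane skeleton protein (0.87). Ccn3 was closest to Raver1, a splicing cofactor (0.96), Gbf1, a Golgi guanine nucleotide exchange factor (0.92), and P2rx4, an ATP-gated channel (0.91). Raver1 and P2rx4 had correlations of only 0.18 and 0.11 with Ccn3 once the difference between genotypes was left in, and their log2 fold changes were 0.01 ± 0.14 and -0.02 ± 0.11. Ccn4 was closest to Bicc1 (0.87), the small leucine-rich proteoglycan Fmod (0.87) and Pid1 (0.86). Ccn5 was closest to Rcc1 (0.90), a regulator of the nuclear GTPase Ran, the replication helicase subunit Mcm2 (0.87) and Yipf3 (0.83).

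The promoter of Ccn1 is shown, the gene with the widest spread between libraries; of the 5 genes it is the one whose promoter was read from the RefSeq table, and the others are not analysed here. These are the 250 bases before its start in RefSeq (GRCm38.p6, minus strand), chr3:145649986-145650235, written in the direction of transcription. Capitals mark, in order, the core letters bound by TEAD (CATTCC), the short core of the cyclic AMP response element (CGTCA) and a TATA box (TATAAA).
Ccn1: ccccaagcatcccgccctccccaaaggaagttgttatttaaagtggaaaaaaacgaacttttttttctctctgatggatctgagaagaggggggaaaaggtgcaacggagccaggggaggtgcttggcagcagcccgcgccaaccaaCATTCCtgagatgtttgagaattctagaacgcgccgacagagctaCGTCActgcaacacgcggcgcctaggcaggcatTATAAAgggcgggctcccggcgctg
The matches begin 103, 58 and 25 bases before the start. The TEAD core was searched on both strands and is found in 12.6 percent of 32851 promoter windows of this length, the short cyclic AMP core, also on both strands, in 17.8 percent, and the TATA box, on the strand of the gene, in 7.59 percent. The serum response CArG box and the SMAD palindrome GTCTAGAC were not found in this window. A match describes letters and is not evidence that a factor is bound.

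The pathways around the family were described by lists. Among 18 tested YAP and TEAD target genes other than the CCN genes, 2 rose and none fell, beside 2.65 percent higher and 2.38 percent lower among all genes tested. The median log2 fold change was 0.29, beside -0.0046 for all genes. Crim1, a membrane protein that binds bone morphogenetic proteins, went from a mean of 5.02 CPM in the 5 WT libraries (SD 0.949) to 13.7 CPM in the 6 Het libraries (SD 2.15), with every Het library above every WT library (log2 fold change 1.44 ± 0.17, adjusted p = 1.30e-04 by edgeR's quasi-likelihood test). Ankrd1, an ankyrin repeat cofactor of muscle, went from 0.775 to 2.67 CPM (1.80 ± 0.50, adjusted p = 0.0474), a call lost in 15 of 24 alternative fits, among them those without any 1 WT library and without any 1 Het library but Het 6. Igfbp3, with the next smallest p, had a value of -0.98 ± 0.33 (adjusted p = 0.105). Among 18 Hippo pathway components, which control YAP, none passed by edgeR, none by limma voom and 1 by DESeq2, and the median was -0.12. DESeq2 called 1297 genes over the whole table against 742 by edgeR. At an unadjusted p under 0.05 by edgeR there was 1. The share of all genes at that level is not given here, so nothing is read from that count. Yap1 itself went from 12.9 to 16.7 CPM (0.37 ± 0.12, adjusted p = 0.0792 by edgeR's quasi-likelihood test). Every Het library was above every WT library for Yap1, as for 2.41 percent of all genes tested. Its regulator Amotl1 had -0.29 ± 0.15 (adjusted p = 0.302), and Vgll3, a TEAD cofactor, 0.51 ± 0.27 (adjusted p = 0.316).

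Among 17 TGF-beta induced genes other than Ccn2, 4 rose and none fell, beside the 2.65 and 2.38 percent of all genes tested, and the median was 0.30, beside -0.0046. Tnc, the matricellular tenascin C, lay at 41.7 to 63.6 CPM in WT and 111 to 199 CPM in Het. Postn, Snai2 and Ltbp2 were the other 3, with log2 fold changes of 0.63 ± 0.09, 1.22 ± 0.18 and 0.66 ± 0.10. In the Xist-positive libraries alone, Tnc was the 1 gene of these that passed, and with the sex score Ltbp2 did not pass. Smad7, the inhibitory Smad, did not pass at 0.84 ± 0.27 (adjusted p = 0.0912 by edgeR's quasi-likelihood test), and Col1a1, a fibrillar collagen, had 0.38 ± 0.25.

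Among 17 tested immediate early genes, none passed by edgeR's quasi-likelihood test, beside 2.65 percent higher and 2.38 percent lower among all genes tested. None passed by limma voom and 1 by DESeq2, which called 1297 genes over the whole table against 742 by edgeR. The median log2 fold change was 0.17, beside -0.0046 for all genes. At an unadjusted p under 0.05 by edgeR there were 3. The share of all genes at that level is not given here, so nothing is read from that count. Egr1, a serum-induced zinc finger factor, went from 6.99 to 12.3 CPM (0.82 ± 0.24, adjusted p = 0.0589), Myc had 0.52 ± 0.19 and the stress factor Atf3 had -1.14 ± 0.42. Within the groups the list had a median correlation of 0.27 with Ccn1, from -0.76 to 0.89, the last with Jun, beside a median of 0.01 for Ccn1 against all genes tested.

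Among 7 tested Wnt target genes none passed by edgeR, DESeq2 or limma voom. By edgeR, 2.65 percent of all genes tested were higher and 2.38 percent lower. The median was -0.28, beside -0.0046 for all genes. At an unadjusted p under 0.05 by edgeR there were 2. The share of all genes at that level is not given here, so nothing is read from that count. Znrf3, a membrane ubiquitin ligase that dampens Wnt signalling, went from 464 to 377 CPM (-0.30 ± 0.10, adjusted p = 0.116 by edgeR's quasi-likelihood test). Every Het library was below every WT library for Znrf3, as for 2.20 percent of all genes tested. Lgr6, an R-spondin receptor, had -0.28 ± 0.11 and Nkd2, a Dishevelled antagonist, -0.66 ± 0.33. Lef1, Sp5, Rnf43, Notum, Apcdd1 and Dkk1 had too few reads to test.

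Receptors and partners of CCN proteins were expressed in the arch. Of 13 tested, none passed by edgeR, DESeq2 or limma voom. By edgeR, 2.65 percent of all genes tested were higher and 2.38 percent lower. The median was 0.10, beside -0.0046 for all genes. At an unadjusted p under 0.05 by edgeR there were 3. The share of all genes at that level is not given here, so nothing is read from that count. The integrin beta 1 chain Itgb1 averaged 534 CPM in WT against 572 in Het, and the syndecan Sdc4, a heparan sulfate proteoglycan, at 1652 and 2063 CPM (0.32 ± 0.15, adjusted p = 0.242 by edgeR's quasi-likelihood test). Itga6, an integrin laminin receptor chain, had 0.58 ± 0.20 and the leukocyte integrin chain Itgb2 0.96 ± 0.38. Notch1, which Ccn3 binds, was low, with 3.83 CPM in WT against 2.97 in Het (-0.36 ± 0.31, adjusted p = 0.577).

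Of 11 tested Notch ligands, receptors and targets, which include Notch1, 2 rose and none fell, beside the 2.65 and 2.38 percent of all genes tested, and the median was 0.21, beside -0.0046. Notch3, the Notch receptor of mural cells, lay at 8.47 to 12.3 CPM in WT and at 15.3 to 21.9 CPM in Het (0.86 ± 0.13, adjusted p = 0.00138 by edgeR's quasi-likelihood test). The target gene Hes1 went from 1.26 to 2.78 CPM (1.14 ± 0.28, adjusted p = 0.0270), a call lost in 11 of 24 alternative fits, among them those without WT 1, WT 3, WT 4, Het 2 or Het 6. Neither passed with the sex score or in the Xist-positive libraries. The ligand Jag1 had 0.36 ± 0.11 (adjusted p = 0.0710).

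Marker lists of other cell types differed in part between the groups in the fit of all libraries. Over all genes tested, 2.65 percent rose and 2.38 percent fell. The marker calls were not examined with the sex score or in the Xist-positive libraries, and sex is unevenly spread over the groups. Of 8 markers of dividing cells 7 rose, and their summed level was 114 to 239 CPM in WT and 216 to 308 CPM in Het; their part in the Ccn3 and Ccn5 levels was not tested. Of the 9 smooth muscle markers, none rose and 1, Cnn1, fell, with summed levels of 33723 to 38270 CPM in WT and 30606 to 41683 CPM in Het. Of 10 tested cartilage markers, 1 rose, the proteoglycan Acan, and 2 fell, Sox9 and Snorc. Acan lay at 4.26 to 9.92 CPM in WT and 28.9 to 66.5 CPM in Het, while Col2a1, the cartilage collagen, was at most 0.674 CPM and Matn1 had no count in any library. Among 9 markers of adventitial fibroblasts 1 rose, Cd248, and 1 fell, Pi16, with overlapping sums of 1646 to 2346 CPM in WT and 1657 to 2565 CPM in Het. Of the 9 skeletal muscle genes only 4 were tested, and 2 of these, Tnnt3 and Tnni2, were lower in Het. The sum of the list lay at 21.3 to 43.4 CPM in WT and 8.88 to 17.2 CPM in Het. Tnnt3 was the largest part of that sum, with means of 27.0 CPM in WT and 8.76 CPM in Het. Tnni2 reached at most 4.88 CPM, and Mylpf did not pass, with means of 2.33 CPM in WT and 2.45 CPM in Het. In the cardiac muscle list 1 of 6 rose, Ryr2. No gene passed by edgeR in the lists for endothelium, brown fat, macrophages, lymphocytes, Schwann cells and neurons, mesothelium, red blood cells or platelets. The part of any of these cells in the CCN levels was not tested.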

How the data were processed

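The authors deposited counts per Ensembl gene for 11 libraries, a part of those counts with fewer rows and identical values (not used for results), and a TMM-scaled CPM signal. Per the submitters' processing notes, GRCm38, limma, edgeR, DESeq2 and STAR 2.5.2a were used, with roles unstated. The counter and its annotation were not given in the sources used here. Per the labels' protocols, libraries were unstranded Nextera XT, read as single 75 nt reads over separate runs that the columns do not tell apart.

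From the deposited counts, 24 rows that name no mouse gene (at most 8.06e-05 percent of a library) were dropped. Genes passing edgeR's filterByExpr (minimum count 10, minimum total 15) were scaled by TMM (factors 0.979 to 1.03) and compared between genotypes with the quasi-likelihood F test of edgeR 4.0.16 (robust, in R 4.3.3), without covariates, at a Benjamini-Hochberg adjusted p of 0.05 over all genes. The SE is the log2 fold change over the square root of F. Correlations use log2 CPM with a prior count of 2. The deposited CPM signal served for limma alternatives (limma 3.58.1, pseudocounts of 1 and 0.5); DESeq2 1.42.0 was another. Counting limits cover counting error only. The sex score subtracts log2 CPM of Xist from the average over Uty, Kdm5d, Eif2s3y and Ddx3y. The same numbers on WT and Het libraries (1 to 5) mark no stated pairing.

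The members and gene lists were chosen with earlier results of these data known. Named were the CCN genes, the 3 smallest p of each pathway list, the 3 closest genes of each member, and the most abundant markers. A gene that this rule gives is not reported here. Smad7, Col1a1, Itgb1, Notch1, Ltbp2, Jun, Col2a1, Matn1, Cd248, Pi16, Sox9, Snorc, Cnn1, Tnni2, Ryr2, Gm15270, Mal2, Enpp2 and Tnfrsf11b were named after their values were seen. Most marker genes given by the rule are left out for length.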

Additional observations from a re-analysis of the deposited data

Results flagged for a closer look

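Ccn2 in Het 5 stood far from the other Het libraries, at 272 CPM against 173 CPM in the next highest, Het 1. The gap is 0.629 of the group's range, just over the 95% limit of Dixon's test for 6 samples; 10 such groups, the 5 genes in each genotype, were examined, and chance alone flags about 1 in 20. Het 5 had 5020 Ccn2 counts and a total of 18883711, and Ccn1 was high there too, at 287 CPM. Without Het 5 the log2 fold change of Ccn2 was 0.17 ± 0.16 (SE).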

How the results depend on the processing

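Ccn3 passed the threshold in 24 of 24 alternative fits and Ccn5 in 15, and the log2 fold change of each of the 5 genes was positive in all 24. The number of CCN genes called, 2 with all libraries, was 1 in the Xist-positive libraries, 1 with the column number, 1 without WT 1 and WT 2 together, and 1 to 3 when 1 library was left out. Genes called over the whole table, 742 with all libraries, were 1297 by DESeq2, 123 with the sex score, 34 in the Xist-positive libraries, 415 with the column number, 432 without WT 1 and WT 2, and 458 (without WT 2) to 853 (without WT 4) when 1 library was left out. Same-numbered WT and Het libraries did not deviate together (correlations -0.03, 0.06, 0.03, -0.03 and -0.21; 0 of 5 correlated best with their own number), and with the replicate number as a block 329 genes were called, with 1 YAP and TEAD target and 1 Notch gene, while Ccn3 and Ccn5 still passed. YAP and TEAD targets called (2) were 1 with the sex score, 1 in the Xist-positive libraries, 1 with the column number, 1 without WT 1 and WT 2, and 1 to 2 when 1 library was left out. Notch genes called (2) were 1 without the filter on low counts, 0 with the sex score, 0 in the Xist-positive libraries, 1 with the column number, 1 without WT 1 and WT 2, and 1 to 3 when 1 library was left out. TGF-beta induced genes called (4) were 3 with the sex score, 1 in the Xist-positive libraries, 5 by DESeq2 and 5 without WT 1 and WT 2. Lists with 0 calls had 1 in these fits: Hippo components by DESeq2, immediate early genes by DESeq2 and without the filter (0 to 1 when 1 library was left out), CCN partners without WT 1 and WT 2, and Wnt targets, 0 to 1 when 1 library was left out. The fit of Xist-positive libraries has 2 Het libraries only; the causes of the other changes were not tested. Scaling by RLE or upper quartile factors, limma and the stricter filter changed no call of a CCN gene.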

Other observations

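Genes around the CCN genes were counted too, beside the 5.03 percent of all tested genes that passed. Within 1000000 bases on either side, 12 tested genes lay around Ccn3, of which 1 rose and none fell. It was Tnfrsf11b, which encodes osteoprotegerin, a decoy receptor for the osteoclast factor RANKL; it went from 25.5 ± 7.55 CPM in WT (SD, n = 5) to 43.8 ± 5.42 CPM in Het (SD, n = 6), with a log2 fold change of 0.78 ± 0.16 (adjusted p = 0.00883 by edgeR's quasi-likelihood test). The nearest tested genes on each side of Ccn3, Mal2 and Enpp2, had -0.36 ± 0.60 and -0.48 ± 0.27, neither past the threshold. Around Ccn4, on the same chromosome, 1 of 6 tested genes rose and none fell. Around Ccn1 1 of 18 rose, around Ccn5 1 of 30 rose, and around Ccn2 1 of 11 fell.

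Within the groups, the correlations of Ccn4 with the summed marker lists over the 11 libraries ran from -0.56 (cardiac muscle) and -0.49 (smooth muscle) to 0.61 (adventitial fibroblasts), 0.67 (red blood cells) and 0.68 (macrophages). With the list of dividing cells, Ccn1 had 0.55, Ccn5 0.28, Ccn4 0.20, Ccn2 0.15 and Ccn3 0.11. These are descriptions.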
